A study of Mus musculus with 2 samples.

Results

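The miR-106a-363 cluster was described in 2 small RNA libraries of the J1 line, which are established embryonic stem cells from 129S4/SvJae mice. The cells of both groups grew on gelatin with 1000 U/mL LIF, which keeps such cells undifferentiated. The first group received 1 µM SC1 for 6 h and the other the same volume of DMSO for 6 h, with 1 library each, so no value has a replicate error. SC1, also called pluripotin, is a synthetic inhibitor of ERK1 and RasGAP that favours self-renewal. The SC1 list held 1275599 reads of 3 to 17 nt and the DMSO list 18870345 reads of 18 to 44 nt. The lists share no length, so SC1 was not compared with DMSO for any miRNA, and each list is described on its own.

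The cluster has 6 hairpin genes, and the 4 that share no annotated mature sequence with miR-17-92 were taken: Mir106a, Mir18b, Mir20b and Mir363. They were chosen by name and not by read counts, from 1222 miRNA hairpins that were searched, but with earlier results of these data known. A tag was counted if it matched a hairpin exactly and in sense, at 15 to 17 nt in the SC1 list and at 18 to 26 nt in the DMSO list. In SC1, 92 reads in 8 distinct tags matched, of which 75 reads also matched a hairpin of the miR-17-92 cluster. In DMSO, 23045 reads in 100 distinct tags matched, and 0 of them were shared with miR-17-92. Tags read backwards and antisense tags matched these hairpins with 0 reads in either list. The DMSO library carried the miRNAs that mark embryonic stem cells, since all 6 listed hairpins of the miR-290 cluster were found, at 28.6% of the hairpin reads. Markers of liver, muscle, blood, fibroblasts and neural cells ranged from 0.000872% to 0.241% per list, and miR-223 and miR-214 were at 0.

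A miRNA hairpin is cut by Drosha and Dicer into a duplex of a 5p and a 3p strand, and an Argonaute protein usually keeps one strand. Bases 2 to 8 from the 5′ end of that strand, the seed, pair with target mRNAs, so a shift of the start by 1 base changes the set of targets. The cluster on the X chromosome is a paralog of miR-17-92, and together with miR-106b-25 these clusters are known for promoting proliferation and cell survival. Their products fall into seed families: the miR-17 family, the miR-18 family, the miR-19 family and the family of miR-25 and miR-92.

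The mature sequences (RefSeq, GRCm38.p6) show which members share a seed, given in capitals, with each other and with their paralogs. RefSeq lists 7 of the 8 arms; for miR-363-5p the most abundant DMSO tag is shown, and its capitals are bases 2 to 8 of that tag.
miR-106a-5p: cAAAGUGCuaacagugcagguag
miR-20b-5p: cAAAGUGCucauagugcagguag
miR-17-5p: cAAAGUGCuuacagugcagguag
miR-18b-5p: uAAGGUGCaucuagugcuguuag
miR-18a-5p: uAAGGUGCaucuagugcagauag
miR-363-3p: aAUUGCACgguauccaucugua
miR-92a-3p: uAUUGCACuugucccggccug
miR-25-3p: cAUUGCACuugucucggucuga
miR-363-5p: cAGGUGGAacacgaugcaauuu
miR-106a-3p: aCUGCAGUgccagcacuucuuac
miR-20b-3p: aCUGCAGUgugagcacuucuag
miR-18b-3p: uACUGCCCuaaaugccccuucu
miR-106a-5p and miR-20b-5p carry the miR-17 seed and miR-18b-5p the miR-18 seed. miR-363-3p carries the seed of miR-25 and miR-92a. miR-106a-5p differs from miR-17-5p at 1 of 23 positions, and miR-18b-5p differs from miR-18a-5p at 2 of 23.

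The hairpins lie on the minus strand of chromosome X within 875 bases of GRCm38.p6, in the order Mir106a (52742503 to 52742567), Mir18b (52742331 to 52742413), Mir20b (52742113 to 52742192), Mir19b-2, Mir92-2 and Mir363 (52741693 to 52741767) in the direction of transcription. The first 5 bases of Mir106a overlap the last exon of Kis2, a non-coding gene annotated on the same strand and known as a retroviral integration site. No other gene of GENCODE M21 overlaps the 6 hairpins. Each hairpin is shown 5′ to 3′, with the most abundant exact DMSO tag of each arm in capitals.
Mir106a: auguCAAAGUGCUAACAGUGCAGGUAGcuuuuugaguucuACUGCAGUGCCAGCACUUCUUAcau
Mir18b: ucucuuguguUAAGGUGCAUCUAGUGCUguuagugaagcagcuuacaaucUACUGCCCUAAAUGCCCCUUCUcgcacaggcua
Mir20b: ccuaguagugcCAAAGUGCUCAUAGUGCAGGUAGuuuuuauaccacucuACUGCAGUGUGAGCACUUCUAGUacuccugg
Mir363: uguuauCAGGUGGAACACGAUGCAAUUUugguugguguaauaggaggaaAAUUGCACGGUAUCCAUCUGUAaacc

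The SC1 list held few short tags of these hairpins, and nearly all of them began at or next to the start of a mature strand. Mir18b had 76 reads, of which 75 were tags that fit the miR-18a hairpin equally well. Those tags were 15, 16 and 17 nt long, with 2, 41 and 32 reads, and the longest of them read taaggtgcatctagtgc, the 17 bases that miR-18b-5p and miR-18a-5p share from their first base. A single read, AAGGTGCATCTAGTGCT, reached the first base that separates them and fitted Mir18b alone. The 75 shared reads can therefore not be divided between the X-linked and the autosomal miR-18 gene. The single read also fits the shared stretch with an added T, so its assignment to Mir18b is not certain.

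The other members had tags of their own in SC1. Mir363 had 10 reads, 9 of ATTGCACGGTATCCATC and 1 of TTGCACGGTATCCATCT, all from the 3p arm and none from its annotated first base. Mir20b had 4 reads of CAAAGTGCTCATAGTGC and Mir106a 2 reads of CAAAGTGCTAACAGTG, all from the 5p arm. miR-363-5p, the 3p arms of Mir106a and Mir20b, and miR-18b-3p had 0 reads, which allows up to 56.2 in each 1000000 reads of 15 to 17 nt that match a hairpin (3 counts of 53388). Intervals and such limits cover counting error only, since the reads carry no molecular identifiers and several can stem from 1 molecule.

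In DMSO the members were far apart in level, and Mir363, the last hairpin of the cluster, held 91.9% of their reads. Levels are given as RPM, reads in each 1000000 of the 2178493 reads of 18 to 26 nt that matched any miRNA hairpin, with exact 95% binomial intervals. Mir363 had 21181 reads, Mir20b 920, Mir106a 617 and Mir18b 327, so Mir363 stood 23.0 times above Mir20b and 64.8 times above Mir18b. Together the 4 hairpins made up 1.06% of the hairpin reads (interval 1.04 to 1.07).

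**Figure D1:**
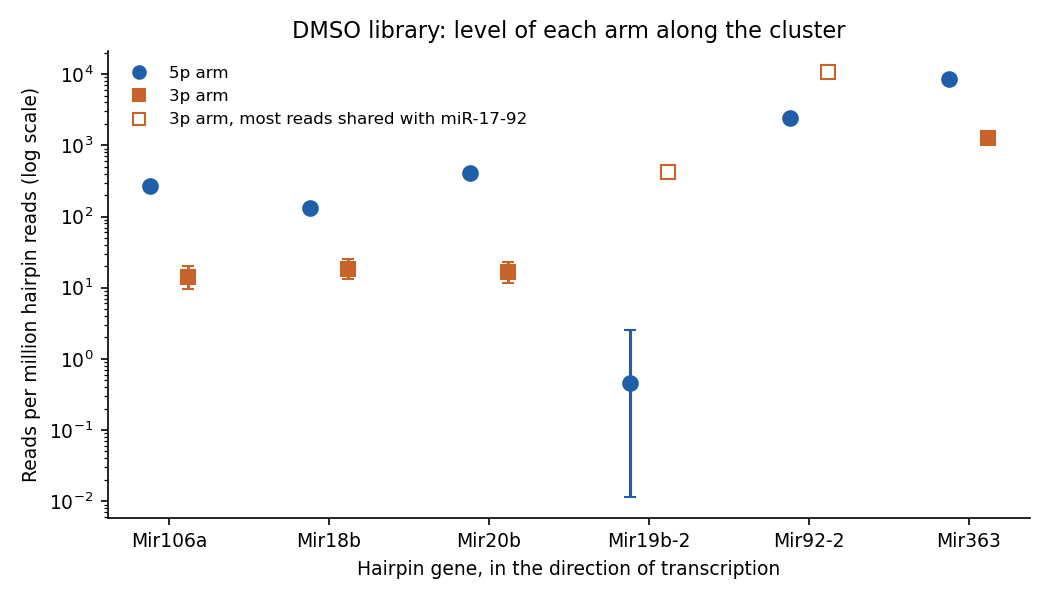
Level of the 5p arm (circles) and the 3p arm (squares) of each hairpin in the DMSO library, as RPM on a log scale, with exact 95% intervals for counting error; the hairpins run in the direction of transcription. Open squares mark arms whose reads are mostly shared with miR-17-92. miR-363-5p stands at 8440.2 RPM, against 405.8 RPM or less for every arm of Mir106a, Mir18b and Mir20b.

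The members of the miR-17 and miR-18 seed families were read mainly from their 5p arms. miR-20b-5p was at 405.8 RPM (interval 379 to 433), miR-106a-5p at 269 RPM (interval 248 to 292) and miR-18b-5p at 132 RPM (interval 117 to 148). The intervals of these arms do not overlap, so their order is larger than counting error. Their 3p arms could not be ranked, with miR-18b-3p at 18.4 RPM (40 reads), miR-20b-3p at 16.5 RPM (36 reads) and miR-106a-3p at 14.2 RPM (31 reads) and overlapping intervals.

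The X-linked members were set beside their nearest relatives in miR-17-92 on chromosome 14. miR-106a-5p had 269 RPM and miR-17-5p 1003 RPM (interval 961 to 1045). miR-20b-5p had 405.8 RPM and miR-20a-5p 482 RPM (interval 453 to 512). miR-18b-5p had 132 RPM and miR-18a-5p 129 RPM (interval 114 to 144). The miR-106a and miR-20b values lay below those of their relatives beyond counting error. The intervals of both miR-18 arms overlapped, but this rests on an 18 nt tag that cannot be assigned with certainty, as described with its lengths. With tags of 19 to 26 nt, miR-18b-5p had 69.3 RPM (151 reads, interval 58.7 to 81.3) and miR-18a-5p 128 RPM (278 reads, interval 113 to 144), which do not overlap. With 1 library, variation between cultures is not part of these intervals.

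Reads of miR-106a-5p were far more frequent than other single-base variants of miR-17-5p, from which 1 base separates it. Positions are counted from 1 at the 5′ end of miR-17-5p. The full 23 nt form of miR-17-5p had 1542 DMSO reads, and the change T10A, which gives miR-106a-5p, had 479. At the same position T10C had 1 read and T10G had 0. Over 63 other single changes at positions 1 to 22 of the same tag, the highest had 2 reads.

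miR-363 was unlike the other members in level, and its 5p arm, which does not carry the seed of miR-25 and miR-92, held most of its reads. miR-363-5p was at 8440.2 RPM (18387 reads, interval 8319 to 8563) and miR-363-3p at 1276 RPM (2779 reads, interval 1229 to 1324). The 5p arm thus took 86.9% of the reads of both arms (interval 86.4 to 87.3), a ratio of 6.62 to 1. The 5p share was 96.1% for Mir20b (interval 94.6 to 97.2), 95.0% for Mir106a (interval 92.9 to 96.6) and 87.8% for Mir18b (interval 83.7 to 91.1). Of all 202 hairpins with both arms in RefSeq and 100 reads or more, 109 (54.0%) had more 5p than 3p reads, and 83 had a higher 5p share than Mir363.

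Hairpins of the same seed family differed in their arm shares, also within the cluster. Mir363 had 86.9% of its reads on the 5p arm. Mir92-2, its neighbour with the same 3p seed, had 18.7% (interval 18.2 to 19.1), with the 3p reads mostly shared with Mir92-1 and counted in full. Tags that matched Mir92-2 alone gave 5298 5p and 2229 3p reads. Which arm of Mir92-2 leads therefore depends on the shared 3p tags. Of the 2229 reads, 2176 were 1 tag, the stretch shared with Mir92-1 plus 1 A. Such a tag also fits the shared strand with an A that the hairpin does not encode, and the 2 cannot be told apart. In the other clusters Mir25 had 14.4% (interval 14.2 to 14.6) and Mir92-1 4.69% (interval 4.46 to 4.93). Mir106a had 95.0%, Mir17 56.2% (interval 54.6 to 57.8) and Mir106b 49.8% (interval 48.4 to 51.2). Mir20b had 96.1%, Mir20a 98.9% (interval 98.0 to 99.4) and Mir93 99.9% (interval 99.7 to 99.9). Mir18b had 87.8% and Mir18 88.3% (interval 84.3 to 91.6), with overlapping intervals. With tags of 19 to 26 nt, which leave out the 18 nt tag of miR-18b-5p, Mir18b had 79.1% (interval 72.6 to 84.6). Mir18 had 88.3% in that window (interval 84.2 to 91.6), and the intervals still overlap. With tags of 20 to 24 nt Mir18b had 72.0% (interval 63.9 to 79.2) and Mir18 88.3% (interval 84.2 to 91.6). These intervals do not overlap, so the outcome depends on the window.

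**Figure D2:**
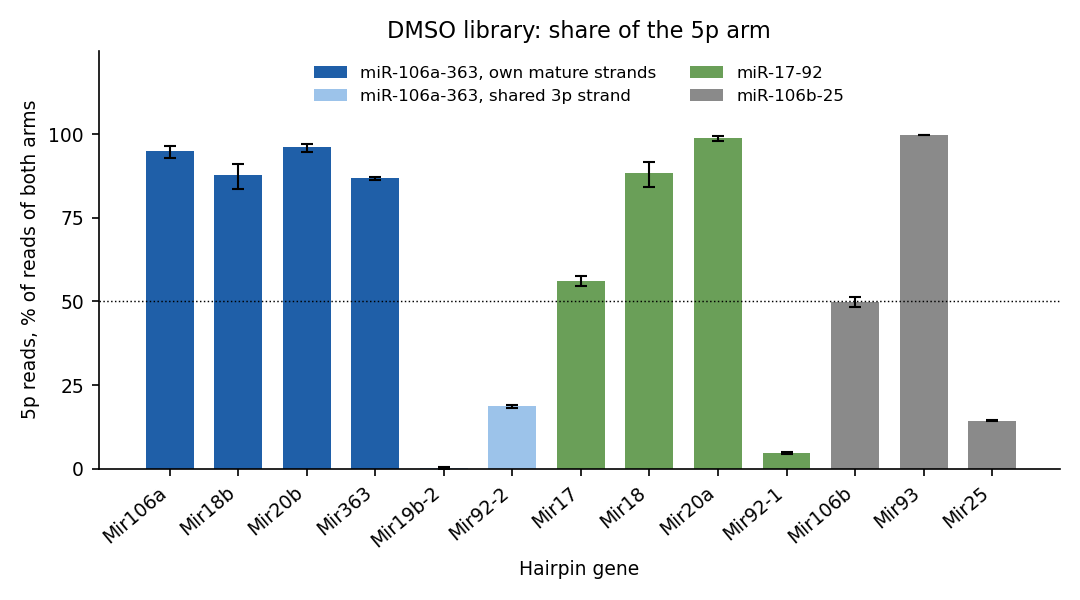
Reads of the 5p arm in the DMSO library, in percent of the reads of both arms, with exact 95% intervals for counting error. Shown are the hairpins of miR-106a-363 and miR-106b-25, and Mir17, Mir18, Mir20a and Mir92-1 of miR-17-92. The dotted line marks 50%. Mir106a, Mir18b, Mir20b and Mir363 lie above the line, from 86.9% to 96.1%. Mir19b-2 and Mir92-2 of the same cluster lie at 0.108% and 18.7%, with 3p reads shared with miR-17-92 counted in full. On tags that matched it alone Mir92-2 had 5298 5p and 2229 3p reads. Of these 3p reads, 2176 also fit the shared strand with an added A. Mir92-1 and Mir25 of the other clusters lie at 4.69% and 14.4%.

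The arm share of Mir363 differed with the length of the exact tags. In SC1 all 10 reads of Mir363, at 17 nt, came from the 3p arm (5p share 0%, interval 0 to 30.8). In DMSO the 5p arm had 2 reads and the 3p arm 194 at 18 nt, a 5p share of 1.02% (interval 0.124 to 3.64). The 5p share was 6.76% at 20 nt, 40.3% at 21 nt, 89.9% at 22 nt and 95.0% at 23 nt. Tags with added 3′ bases, described below, are left out of these shares. The most abundant of them in miR-363-3p had 848 reads at 23 nt, against 382 exact reads of that arm and length. The SC1 and DMSO values come from different lengths, so treatment and length cannot be told apart.

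The 2 arms of Mir363 also differed in how sharply they ended. miR-363-5p was 22 nt long in 57.9% of its reads and 23 nt long in 39.8%, and these forms differ by 1 T that the hairpin encodes. Its 2 most abundant tags, caggtggaacacgatgcaattt with 10435 reads and caggtggaacacgatgcaatttt with 7274, both began at position 7 of the hairpin, where 98.1% of its reads began (interval 97.9 to 98.3). miR-363-3p spread over 18 to 24 nt, with 43.0% of its reads at 22 nt, 19.9% at 21 nt and 6.98% at 18 nt.

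miR-363-3p had 2 main starts, which give different seeds. Of its 2779 exact reads, 57.0% (interval 55.1 to 58.8) began at the annotated base, position 50 of the hairpin, and 41.9% (interval 40.1 to 43.8) at position 51. The forms are shown with bases 2 to 8 in capitals.
start at position 50: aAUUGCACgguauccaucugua
start at position 51: aUUGCACGguauccaucugua
The first carries the seed AUUGCAC of miR-25 and miR-92a, and the second reads UUGCACG. The annotated start held 99.5% of the reads of miR-25-3p and 98.8% of those matching miR-92a-3p in Mir92-1. Among all 124 annotated 3p arms with 100 reads or more the median was 95.9%, and 22 had a lower share than miR-363-3p. In the 10 short SC1 reads, 9 began at position 51, 1 at position 52 and 0 at position 50.

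The 5′ ends of the other leading arms were sharp. The annotated start held 99.7% of the reads of miR-18b-5p, 99.2% of miR-20b-5p and 95.2% of miR-106a-5p. miR-18b-3p, with 40 reads, began at its annotated base in 47.5% (interval 31.5 to 63.9) and 1 base later in 27.5%. miR-20b-3p and miR-106a-3p began at theirs in 91.7% and 87.1% of 36 and 31 reads.

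miR-18b-5p was the short member of the cluster. Its most abundant tag had 18 nt, the shortest length in the DMSO list, and held 136 of its 287 reads (47.4%). With only tags near the annotated ends, 20 nt was its most frequent length, since this leaves out the 18 nt tag. Tags of 19 nt held 16.7%, tags of 20 nt 18.1% and the annotated 23 nt 8.01%. Its relative miR-18a-5p was 21 nt long in 52.1% of its reads, 22 nt in 23.9% and 23 nt in 20.4%, and 0.714% were 18 nt long. miR-106a-5p and miR-20b-5p were mainly of the annotated 23 nt, at 81.9% and 74.3% of their reads.

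The 18 nt tag of miR-18b-5p, taaggtgcatctagtgcT, is the shared stretch of 17 bases plus 1 base. With T as its last base it had 136 DMSO reads, with A, the base of miR-18a-5p, 2 reads, and with C or G 0 reads each. Such a tag also fits a shared stretch of 17 bases with an untemplated T, and the 2 cannot be told apart. The DMSO list holds no 17 nt tags to count that stretch. The SC1 list held 32 reads of it and no 18 nt tags. The 149 reads of 19 nt or more from the same start carry further bases of miR-18b-5p, against 275 such reads of miR-18a-5p.

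**Figure D3:**
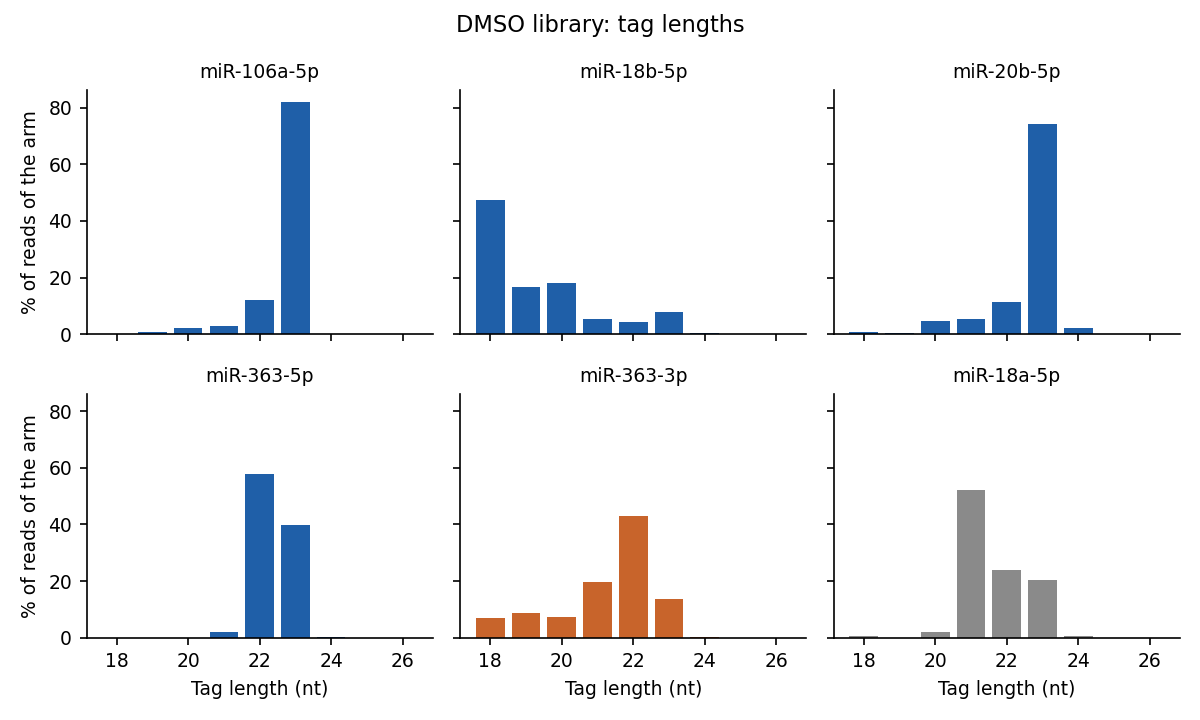
Share of the exact reads of an arm at each tag length in nt in the DMSO library, for 5 arms of the cluster and for miR-18a-5p of miR-17-92. miR-18b-5p is most frequent at 18 nt (47.4%), whereas miR-106a-5p and miR-20b-5p are most frequent at 23 nt and miR-18a-5p at 21 nt (52.1%). The 18 nt tag also fits the stretch shared with miR-18a-5p plus an untemplated T.

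The arms of Mir363 also differed in bases added after the end of the hairpin match. Mature miRNAs are known to gain U or A at their 3′ end from terminal nucleotidyl transferases, and tags with 1 to 3 last bases that do not match the hairpin were counted for this. miR-363-3p had 2779 exact reads and 2093 such reads, 43.0% of all (interval 41.6 to 44.4), and miR-363-5p had 18387 and 242, 1.30% (interval 1.14 to 1.47). Of the tailed miR-363-3p reads 1982 had only T, 3 only A, 3 only C and 6 only G. Tails of 1, 2 and 3 T had 1479, 475 and 28 reads.

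Its tailed form was the most abundant tag of miR-363-3p. The leading tags are shown with the added base in capitals.
848 reads: aattgcacggtatccatctgtaT
802 reads: aattgcacggtatccatctgta
596 reads: attgcacggtatccatctgtaT
418 reads: attgcacggtatccatctgta
The tail was seen on both starts, in 38.4% of the reads from position 50 (interval 36.5 to 40.3) and in 47.4% of those from position 51 (interval 45.3 to 49.5). It differed with the last matching base. Of 3196 reads whose match ended at position 71, the annotated end, 61.4% carried a tail, and of 772 that ended 1 base later 1.55% did. The next hairpin bases after position 71 are A, so an added A cannot be told from an encoded one, and in miR-363-5p an added T cannot be told from the encoded run of T. Such additions are not in these counts.

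**Figure D4:**
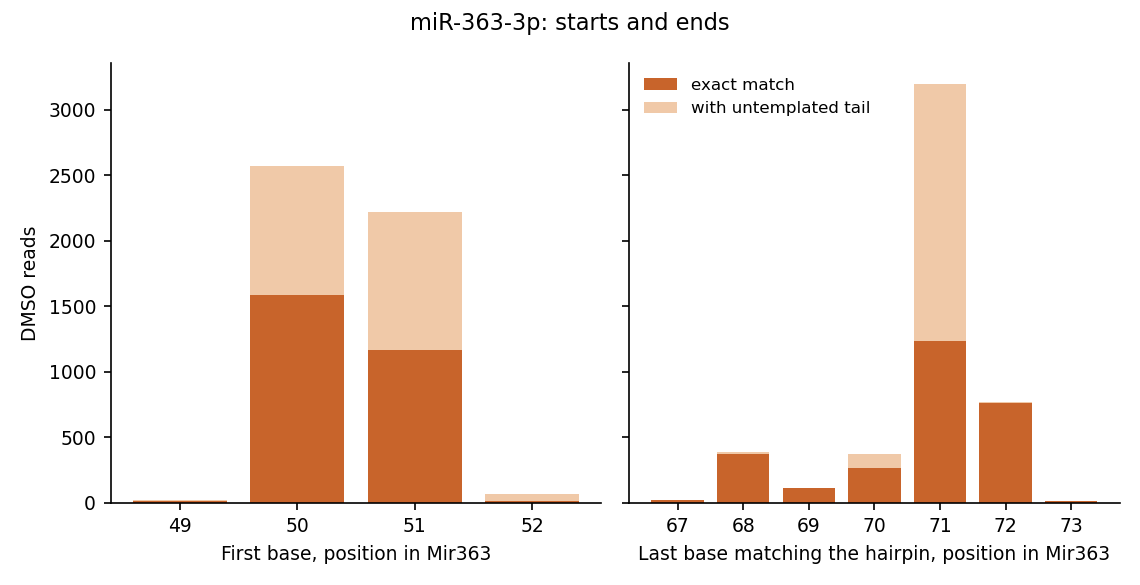
DMSO reads of miR-363-3p by their first base (left) and by the last base that matches the hairpin (right), as positions in Mir363; dark bars are exact tags and light bars tags with 1 to 3 untemplated last bases. With tails, positions 50 and 51 hold 2569 and 2216 reads, and tails stand mainly on reads whose match ends at position 71 (61.4%).

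As counted, the 5p arms of the other members had fewer tails, and most of those were not of T only. miR-106a-5p had a tail in 16.6% of its reads (7.11% only T, 7.97% only A), miR-20b-5p in 9.98% (2.34% T, 6.72% A) and miR-18b-5p in 5.59% (0 reads T, 5.26% A). The 136 reads of the 18 nt tag of miR-18b-5p, which also fit an untemplated T, count as exact here. The 3p arms of Mir20b, Mir106a and Mir18b had few tailed reads: 4 of 40 for miR-20b-3p, 2 of 33 for miR-106a-3p and 2 of 42 for miR-18b-3p. Of these, 4, 2 and 1 were of T only. Of their relatives, miR-17-5p had a tail in 12.2% and miR-20a-5p in 15.6%. Tails of only T were carried by 40.7% of the miR-363-3p reads (interval 39.3 to 42.1), against 1.51% for miR-25-3p (interval 1.44 to 1.59) and 0.125% for miR-92a-3p as matched to Mir92-1 (interval 0.0891 to 0.171), which have the same seed. Mir92-1 encodes T after positions 70 and 71, where many miR-92a-3p tags end. A T added there cannot be told from an encoded one, so the 0.125% leaves such additions out. Over the 124 annotated 3p arms the median was 2.85%, and 5 arms had a higher share than miR-363-3p. Over 132 annotated 5p arms the median was 1.24% and none had a higher share.

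**Figure D5:**
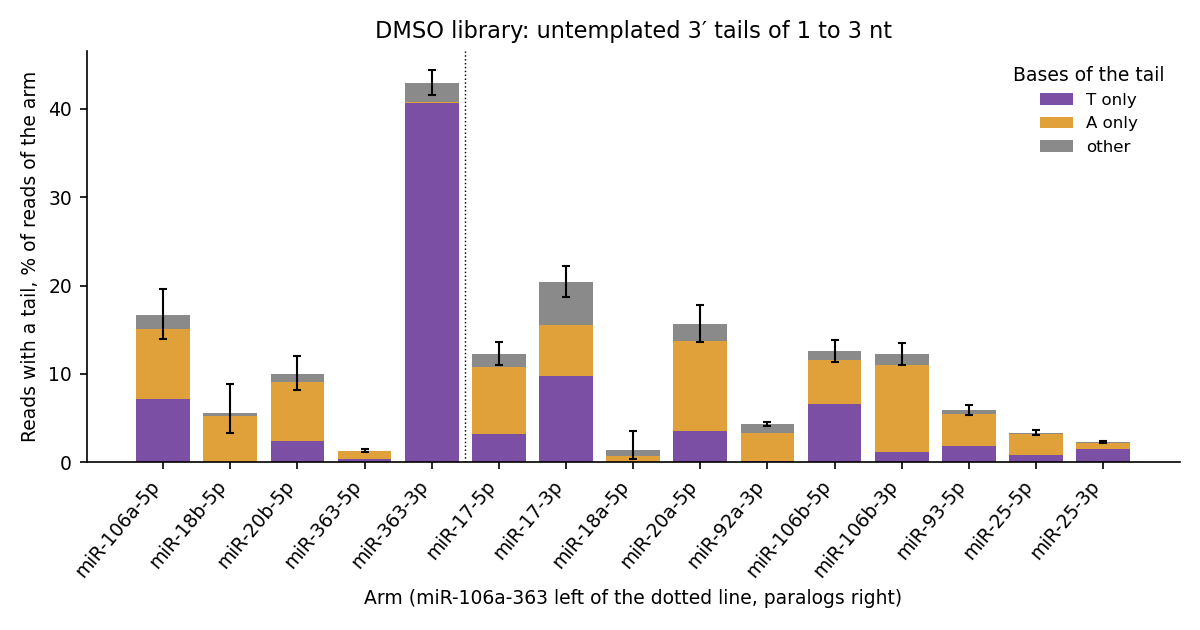
Reads with 1 to 3 untemplated 3′ bases in the DMSO library, in percent of all reads of the arm, split by the bases of the tail, with exact 95% intervals of the total; the arms of miR-106a-363 stand left of the dotted line and arms of the paralogous clusters right of it. miR-363-3p reaches 43.0%, nearly all of it T, and miR-17-3p, the next of those shown, 20.4%. The 136 reads of the 18 nt tag of miR-18b-5p, which also fit an untemplated T, count as exact.

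Counting tails moved the arm ratio of Mir363 but not the order of its arms. With tails of any base the 5p arm had 18629 reads and the 3p arm 4872, a 5p share of 79.3% (interval 78.7 to 79.8) and a ratio of 3.82 to 1. The share of the annotated start of miR-363-3p was then 52.7% of 4872 reads. The 5p shares of Mir106a, Mir18b and Mir20b with tails were 95.5%, 87.9% and 96.1%.

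Mir19b-2 and Mir92-2, the remaining hairpins of the cluster, share the mature 3p strand with miR-17-92 and were counted apart. Mir19b-2 had 934 DMSO reads, of which 925 also matched Mir19b-1, and its own miR-19b-2-5p had 1 read. Mir92-2 had 28367 reads, of which 20840 also matched Mir92-1. Its own arm miR-92a-2-5p had 5298 reads, 2432 RPM (interval 2367 to 2498), second in the cluster to miR-363-5p among arms whose reads are not mainly shared. In SC1, 84 reads matched Mir92-2 and all 84 also matched Mir92-1.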

How the data were processed

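Small RNA of 1 library per condition was measured. The authors deposited for each library a list of distinct tags with the raw read count and the length of each tag, and the counts are not normalized. The submitters' processing notes name mm9; no label gives the adapter, the trimming, the aligner or the length filter. The last line of the DMSO list, a total, was left out. Each total covers only the lengths listed, so library depth is unknown.

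Tags were matched exactly to 1222 hairpins, 1005 from RefSeq (GRCm38.p6) and the others from GENCODE M21 (GRCm38). A tag belonged to an arm if it overlapped its RefSeq mature sequence by 12 nt or more; miR-363-5p has no such entry and was called by its side of the hairpin. Tails were the last 1 to 3 bases of a tag that matched no hairpin, after the longest match of 18 to 26 nt. A tag was counted in full for each hairpin it matched. Intervals are exact (Clopper-Pearson) 95% intervals, and a count of 0 was given a limit of 3 counts. No test was made, because each group has 1 library, and SC1 was not set against DMSO, because the lists share no length. The named miRNAs are the members, both of their arms and their paralogs by seed. The members and lists were chosen with earlier results of these data known. Assignment was tested on simulated reads. Scripts ran under Python 3.11.15 with numpy 2.4.6 and scipy 1.17.1, and plots were drawn with matplotlib 3.10.9. Alternatives changed the length window, the scaling, the treatment of shared and tailed tags, the ends allowed and the unit. The windows set for Mir18b beside Mir18 were added after seeing the data.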

Additional observations from a re-analysis of the deposited data

How the results depend on the processing

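No paired analysis was possible because SC1 and DMSO have 1 library apiece. The share of the 4 hairpins in the DMSO hairpin reads was 1.06%. It was 1.09% with tags of 20 to 24 nt, 1.25% with shared tags left out, 0.576% with the top tag of every arm alone and 1.50% of distinct tags. The 5p share of Mir363, 86.9%, was 88.7% with tags of 20 to 24 nt, 92.9% with the top tags alone, 79.4% with untemplated A or T removed and 51.2% of distinct tags. With tails of any base, an alternative chosen after seeing the data, as were those for the share of the 4 hairpins, it was 79.3%. The annotated start of miR-363-3p, 57.0% of its reads, had 52.9% with A or T removed and 33.3% of distinct tags. The 5p share of Mir18b, 87.8%, was 36.4% of distinct tags, the only direction that reversed among the alternatives run; this counts each tag once, whatever its reads. With tags of 20 to 24 nt miR-18b-5p had 50.3 RPM when scaled to the hairpin reads of that window. Scaled to the hairpin reads of 18 to 26 nt it had 47.3 RPM, against 132 RPM with all tags of 18 to 26 nt. The lower value on the same base comes from its tags of 18 and 19 nt (136 and 48 of 287 reads), which that window leaves out. The 5p share of Mir18b was then 72.0%. The cause of the other shifts was not tested. Of all 36 recomputed 5p shares of the 4 hairpins in DMSO, 21 stayed within their interval. The SC1 counts of 0 to 76 reads for each arm limit what its list can show.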
